A study of Mus musculus with 12 samples.

Results

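Maf1 and the genes that lie beside it on mouse chromosome 15 were examined in liver RNA of Maf1-/- and wild-type (WT) mice. The 9 genes are those of the expression table within 40 kb of Maf1 in the GRCm38 genome, out of 13304 genes in all. They are Oplah, Exosc4, Gpaa1, Cyc1, Sharpin, Maf1, Gm35339, Hgh1 and Mroh1. The window was set by position, with earlier results of these data known. RefSeq places 11 genes in this window, and the other two, Rps6-ps1 and Tssk5, have no row in the table. Total RNA of 5 Maf1-/- and 7 WT livers was sequenced, 1 library per mouse. The mice, on the C57Bl/6J background and 12 to 14 weeks old, had been fasted overnight and refed for 4 h, and the Maf1-/- mice lack the gene in the whole body, with no other allele or agent named in either group. Which part of Maf1 the knockout allele removes is not given in the sources used here.

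MAF1 is a conserved repressor of RNA polymerase III (pol III), the enzyme that makes tRNA, 5S rRNA and other short RNAs. When nutrients are scarce or cells are stressed, MAF1 is dephosphorylated and binds pol III, which keeps the enzyme from its promoters. The growth-regulating kinase mTORC1 phosphorylates MAF1 and releases this brake. The authors of the deposited data report that MAF1 restrains pol III in refed as well as fasted mice. Because the deletion lies at 1 place in the genome, the genes beside it are a check of whether RNA of the surrounding region also differs between the genotypes.

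The values are log2 RPM (reads per 1000000 reads of the library), scaled between libraries and not divided by gene length, so on this scale a gene is compared only with itself. Reads in the genes of the table were 34709661 to 41931441 in the Maf1-/- libraries and 35003720 to 55787438 in the WT libraries. The WT library named WT 2 stands apart. GC-rich genes ran low in it, and per 10 points of exonic GC content its values changed by −0.569 on the log2 scale. That slope was −0.541 to 0.077 in the 5 Maf1-/- libraries and 0.143 to 0.350 in the 6 remaining WT libraries. Without WT 2 the slopes of the genotypes thus do not overlap, and an effect of GC content cannot be told apart from one of genotype. Differences are therefore given with and without WT 2 and after a correction of each library for GC content and gene length. Hepatocyte markers summed to 127630 to 163950 RPM in Maf1-/- livers and 117580 to 148740 in WT livers (8 of 8 genes in the table). Kupffer cell markers summed to 231 to 346 and 214 to 377 (6 of 6), endothelial markers to 352 to 417 and 348 to 397 (6 of 6), stellate cell markers to 525 to 745 and 440 to 619 (6 of 6), cholangiocyte markers to 28.9 to 90.5 and 40.2 to 94.4 (5 of 5), and blood cell markers to 37.2 to 87.7 and 28.8 to 62.0 (5 of 7, without Cd3e and Cd79a), each given for Maf1-/- and then WT livers. The part of these differences in the results was not tested. In whole liver, fewer cells of a type and less RNA per cell cannot be told apart.

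The 9 genes run in the order named above from base 76296597, the start of Oplah, to base 76453038, the end of Mroh1. Maf1 lies on the plus strand at 76351294 to 76354380. Sharpin, on the minus strand at 76347040 to 76351111, starts 182 bases before Maf1, so the pair are transcribed away from each other. Gm35339, on the plus strand at 76354472 to 76363795, begins 91 bases after the end of Maf1. Hgh1 (76368898 to 76371403) and Mroh1 (76380261 to 76453038) follow on the plus strand. On the other side, Cyc1 (76343523 to 76345934), Gpaa1 (76331231 to 76334907) and Exosc4 (76327397 to 76330677) are on the plus strand and Oplah (76296597 to 76328015) is on the minus strand. Oplah and Exosc4 overlap over 619 bases on opposite strands, as do Mroh1 and Bop1, a ribosome biogenesis gene, over 43 bases. The library kit marks the strand, but the strand setting of the counting is not given in the sources used here. How reads from these overlaps were counted is therefore not known.

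Maf1 itself was lower in every Maf1-/- library than in every WT library. It was covered by 15, 5, 52, 7 and 15 reads in the libraries KO 1 to KO 5, against 254 to 534 reads in the 7 WT libraries (median 460). On the log2 scale the values were −1.39, −2.81, 0.49, −2.29 and −1.16 in the Maf1-/- libraries, against 2.64 to 3.69 (median 3.48) in the WT libraries. The groups did not overlap, and the lowest WT value was that of WT 2. The mean was −1.43 ± 1.27 in Maf1-/- livers and 3.36 ± 0.35 in WT livers (SD, n = 5 and n = 7), a 27.8-fold lower level (log2 difference −4.79, SE 0.44, 95% interval −5.76 to −3.83, limma adjusted p = 6.0e-04). An exact two-sided permutation test over all 792 divisions of the libraries gave p = 0.00126, the smallest p it allows. The difference was −4.92 without WT 2 (limma adjusted p = 0.0014) and −4.49 after the GC and length correction (limma adjusted p = 0.0033).

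The residual Maf1 reads differed among the Maf1-/- livers. KO 3 had 52 reads (exact Poisson 95% interval 38.8 to 68.2), or 1.39 RPM. KO 2 had 5 reads (1.62 to 11.7), KO 4 had 7 (2.81 to 14.4), and KO 1 and KO 5 had 15 each (8.40 to 24.7), or 0.130 to 0.434 RPM in these 4 libraries. The interval of KO 3 thus lies above those of the other 4, with the intervals covering counting error only. Gene totals do not show where in Maf1 these reads lie.

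Gm35339, the gene that begins just past the end of Maf1 on the same strand, showed the opposite pattern. RefSeq lists it with the synonym Wdr97, a name for genes that encode WD repeats, a fold that holds protein complexes together. It was covered by 2404, 2440, 1406, 1414 and 1860 reads in KO 1 to KO 5, against 31 to 80 reads in the WT libraries (median 66). The log2 values were 5.89, 5.98, 5.24, 5.27 and 5.75 in the Maf1-/- libraries and −0.18 to 0.90 (median 0.51) in the WT libraries. All 5 Maf1-/- values therefore lay far above the highest WT value, which was that of WT 2. The mean was 5.62 ± 0.35 in Maf1-/- livers and 0.42 ± 0.41 in WT livers (SD, n = 5 and n = 7), a 36.8-fold higher level (log2 difference 5.20, SE 0.21, 95% interval 4.75 to 5.66, limma adjusted p = 5.4e-08; exact two-sided permutation p = 0.00126). Without WT 2 the difference was 5.28 (limma adjusted p = 1.5e-07). No GC content was at hand for Gm35339, and it is in none of the corrected comparisons.

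**Figure D1:**
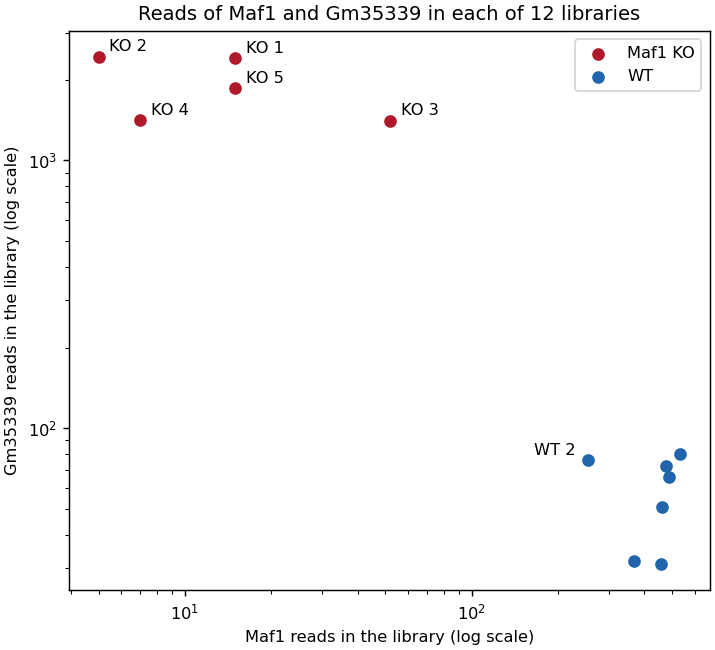
Reads of Maf1 (horizontal, log scale) and of Gm35339 (vertical, log scale) in each of the 12 libraries, 1 point per mouse, with Maf1-/- in red and WT in blue. The 5 Maf1-/- libraries sit at 5 to 52 Maf1 and 1406 to 2440 Gm35339 reads, and the 7 WT libraries, WT 2 among them, at 254 to 534 Maf1 and 31 to 80 Gm35339 reads.

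Set against each other within a library, Gm35339 had 27.0 to 488 reads for each Maf1 read in Maf1-/- livers (median 160), against 0.0677 to 0.299 in WT livers (median 0.136). The lowest ratio among the Maf1-/- libraries was that of KO 3, which had the most Maf1 reads and the fewest Gm35339 reads of the 5. The summed level of both genes was 38.7 to 63.4 RPM in Maf1-/- livers (median 54.3) and 8.08 to 13.8 in WT livers (median 12.9). The sum was thus higher in each Maf1-/- library than in any WT library, and the Gm35339 reads of the Maf1-/- livers outnumbered the Maf1 reads of the WT livers. These are reads not divided by length. Maf1 spans 3087 bases and Gm35339 spans 9324, and no exonic length was at hand for Gm35339. The ratio and the sum therefore do not compare numbers of transcripts. Maf1 and Gm35339 were the only genes of the table that passed an adjusted p under 0.01 together with an absolute log2 difference above 0.5 in limma with all 12 libraries, which is 0.00752% of genes in each direction.

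None of the 7 other genes passed with all libraries, and their values in each library follow, beginning next to Maf1. In 6 of the 7 the difference was negative with an unadjusted p under 0.05, against 13.2% of all genes. The number that reached this p was 1 without KO 3 and 1 without KO 4. There, 1611 and 1810 of 13304 genes reached it in either direction. After the GC and length correction it was 2 of the 7, against 2242 of 12482 genes in either direction. The exonic GC content of these 7 genes had a median of 58.0%, against 49.5% over all genes. The part of the GC slopes of the libraries in their differences was not tested.

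Sharpin differed least between the genotypes. Its product is a subunit of LUBAC, the complex that assembles linear ubiquitin chains in inflammatory signalling, and its loss causes the dermatitis of the cpdm mouse. Sharpin values were 4.92, 4.32, 4.74, 4.75 and 4.86 in the Maf1-/- libraries, against 4.47 to 5.37 (median 4.62) in the WT libraries. The groups overlapped through most of their range, and the highest WT value was that of WT 1. The difference was 0.011 (SE 0.16, 95% interval −0.33 to 0.36, limma adjusted p = 0.968), and −0.018 without WT 2. The interval leaves room for a difference of up to about that size in either direction. Sharpin had the lowest exonic GC content of the genes with a value, 50.5%.

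Cyc1 encodes cytochrome c1, the haem subunit of respiratory complex III that passes electrons to cytochrome c. Its values were 6.65, 6.62, 6.03, 6.30 and 6.62 in the Maf1-/- libraries and 6.15 to 7.14 (median 6.87) in the WT libraries. Every Maf1-/- value lay below the WT libraries other than WT 2, which at 6.15 lay within the Maf1-/- range. The difference was −0.40 (SE 0.17, 95% interval −0.77 to −0.03, limma adjusted p = 0.206), −0.52 without WT 2 (limma adjusted p = 0.0132) and −0.034 after the GC and length correction (limma adjusted p = 0.845).

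Gpaa1 encodes a subunit of the GPI transamidase, which attaches lipid anchors to proteins of the cell surface. Its values were 2.98, 3.16, 2.50, 1.83 and 2.49 in the Maf1-/- libraries, against 1.64 to 4.04 (median 3.87) in the WT libraries. The lowest of all 12 was WT 2, whereas the other 6 WT libraries were at 3.68 or above, higher than each Maf1-/- library. The difference was −0.97 with all libraries (SE 0.39, 95% interval −1.81 to −0.12, limma adjusted p = 0.198). It passed without WT 2 (−1.29, limma adjusted p = 0.0065), and was −0.50 after the correction (limma adjusted p = 0.260).

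Exosc4 encodes a ring subunit of the RNA exosome, which degrades and trims RNA from its 3′ end. Values of 2.94, 2.92, 2.47, 2.34 and 2.91 in the Maf1-/- libraries stood against 2.45 to 3.55 (median 3.30) in the WT libraries. WT 2 was again the lowest WT library, and WT 5, at 2.93, was level with the highest Maf1-/- values. The difference was −0.51 (SE 0.20, 95% interval −0.94 to −0.07, limma adjusted p = 0.196), −0.64 without WT 2 (limma adjusted p = 0.0131) and −0.24 after the correction (limma adjusted p = 0.296).

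Oplah, the gene that overlaps Exosc4, encodes 5-oxoprolinase, which returns 5-oxoproline to glutamate in the glutathione cycle. Oplah values were 7.10, 6.74, 6.63, 6.17 and 6.93 in the Maf1-/- libraries and 6.30 to 7.68 (median 7.41) in the WT libraries. Only WT 2 among the WT libraries reached into the Maf1-/- range, and the next lowest was at 7.27. The difference was −0.55 with all libraries (SE 0.23, 95% interval −1.04 to −0.06, limma adjusted p = 0.198). It passed without WT 2 (−0.71, limma adjusted p = 0.0092), and after the correction it was −0.079 (limma adjusted p = 0.757).

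Beyond Gm35339, Hgh1 encodes a protein that in yeast works with the chaperonin TRiC in the folding of elongation factor eEF2. Hgh1 was at 1.26, 1.65, 0.88, 0.98 and 1.01 in the Maf1-/- libraries and at 1.06 to 1.99 (median 1.69) in the WT libraries. The groups overlapped, since KO 2 lay among the WT values and WT 2 among the Maf1-/- values. The difference was −0.42 (SE 0.18, 95% interval −0.80 to −0.04, limma adjusted p = 0.203) and −0.51 without WT 2 (limma adjusted p = 0.034). After the correction it turned to 0.038 (limma adjusted p = 0.898).

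**Figure D2:**
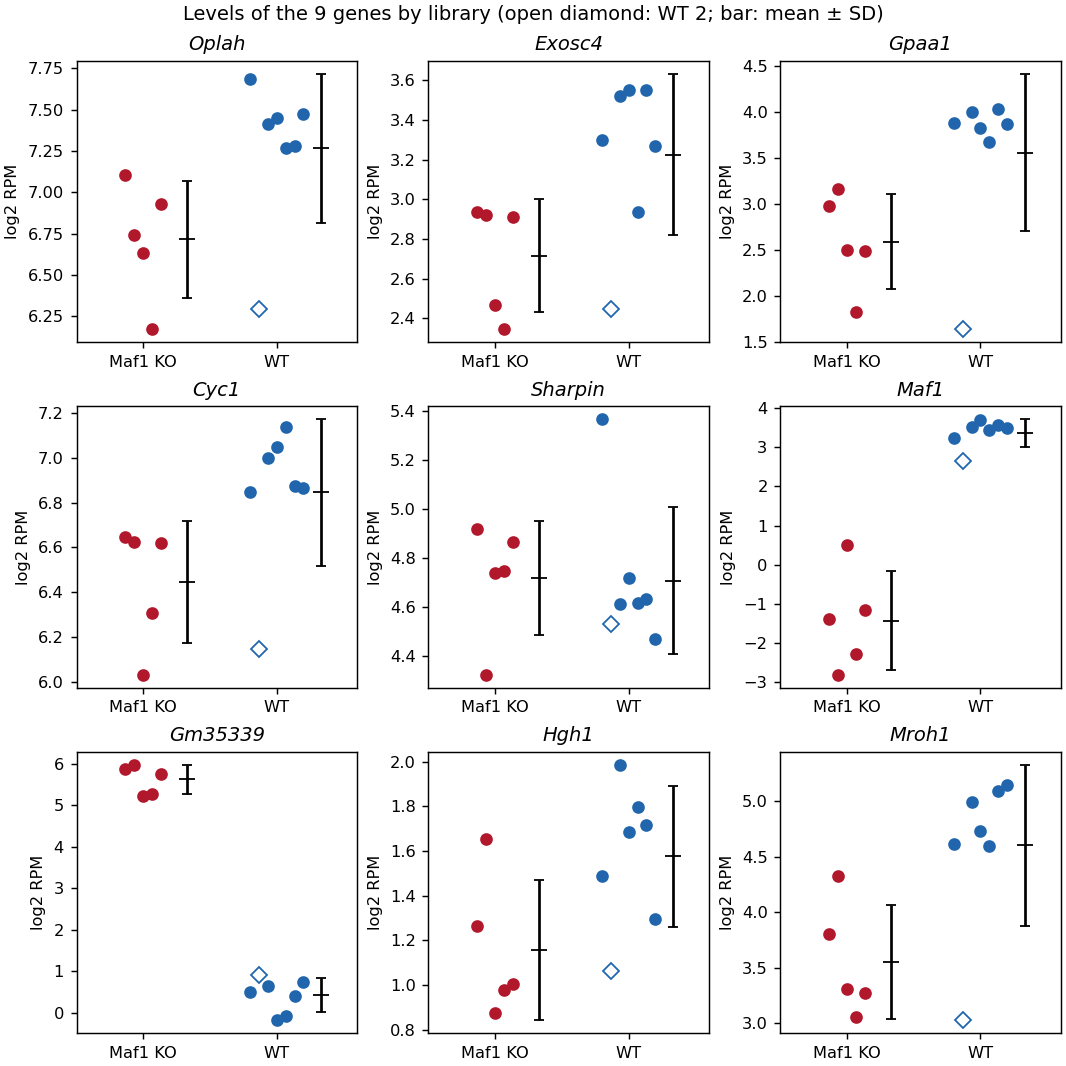
Level of each of the 9 genes in each library, in log2 RPM, with 5 Maf1-/- libraries in red on the left of each panel and 7 WT libraries in blue on the right, and the mean ± SD as a bar. Maf1 and Gm35339 separate the genotypes with no overlap, and in 6 of the other 7 panels the open diamond of WT 2 lies below the other WT libraries, among or below the Maf1-/- values.

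Mroh1, the last and longest of the 9 genes, encodes a protein made of HEAT repeats. Its values were 3.80, 4.33, 3.31, 3.05 and 3.27 in the Maf1-/- libraries, against 3.03 to 5.14 (median 4.74) in the WT libraries. WT 2 held the lowest value of all 12, and the other 6 WT libraries, at 4.60 and above, lay over every Maf1-/- library. The difference was −1.05 (SE 0.34, 95% interval −1.80 to −0.30, limma adjusted p = 0.192), and it passed without WT 2 (−1.31, limma adjusted p = 0.0065).

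After the GC and length correction the Mroh1 values of the Maf1-/- libraries drew together, at 3.78, 3.74, 3.66, 3.82 and 3.63, against 3.54 in WT 2 and 4.42 to 4.77 in the remaining WT livers. The mean was 3.73 ± 0.08 in Maf1-/- livers and 4.48 ± 0.43 in WT livers (SD, n = 5 and n = 7), a difference of −0.75 (SE 0.18, limma adjusted p = 0.206). In Mroh1, WT 2 thus stayed beside the Maf1-/- libraries after the correction. With the correction and without WT 2, a combination chosen after the values were seen, Mroh1 passed (−0.91, SE 0.081, limma adjusted p = 0.0017). Maf1 and Mroh1 were then the only genes of 12482 called lower, or 0.016%, and Tnc the only gene called higher. WT 2 was the WT library set apart in Mroh1, so leaving it out lowers the spread, and this pass is no support for a difference. With all libraries kept and 1 factor of residual variation in the corrected fit, Mroh1 did not pass (−0.75, limma adjusted p = 0.0128). In that fit 59 of 12482 genes were called lower.

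Gpaa1 showed a like pattern at a smaller size. Its corrected values were 3.06, 3.06, 3.03, 2.45 and 2.73 in the Maf1-/- libraries, against 2.32 in WT 2 and 3.44 to 3.64 in the remaining WT livers. Without WT 2 the corrected difference was −0.67 and did not pass (limma adjusted p = 0.0176). In the other 5 genes the corrected difference without WT 2 was between −0.28, in Exosc4, and 0.095, in Hgh1, and none passed. In Oplah, WT 2 had 6.30 before and 6.99 after the correction, and in Cyc1 6.15 and 6.74. Its corrected values in these genes were near the means of the Maf1-/- livers (6.99 ± 0.32 in Oplah and 6.66 ± 0.08 in Cyc1, n = 5) and of the WT livers (7.07 ± 0.16 and 6.69 ± 0.15, n = 7, SD).

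**Figure D3:**
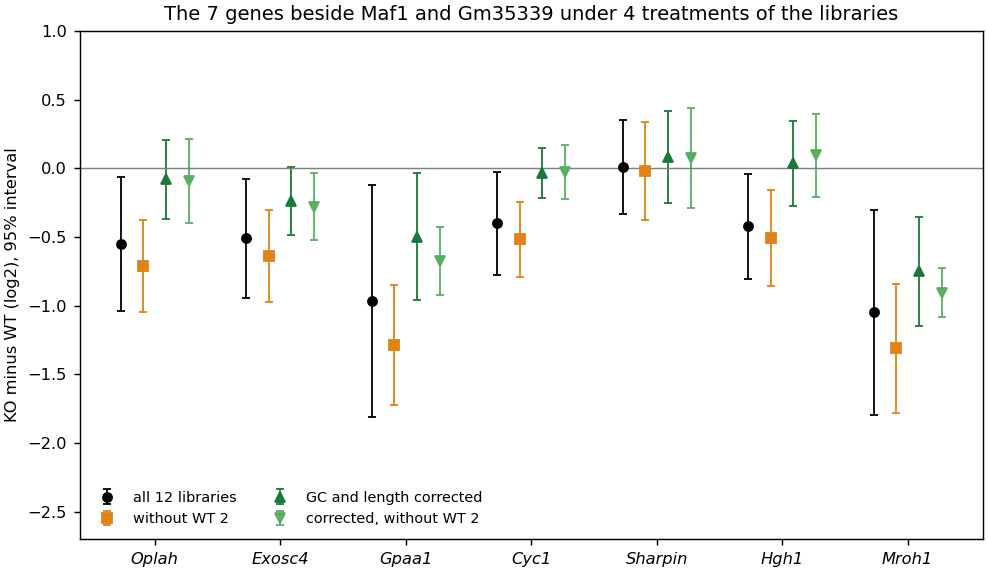
Log2 difference between Maf1-/- and WT livers (vertical axis, with 95% intervals) for the 7 genes beside Maf1 and Gm35339, from all 12 libraries, from 11 libraries without WT 2, and from each of these once corrected for GC content and length. Only Mroh1 and Gpaa1 keep all 4 intervals below 0, Sharpin has all 4 across 0, and the corrected points of Oplah, Cyc1 and Hgh1 lie between −0.09 and 0.095.

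Counted together, 0 of the 7 genes had all Maf1-/- libraries below all WT libraries, against 0.203% of all genes in that direction and 0.383% in the other. Without WT 2, 4 of the 7 (Oplah, Gpaa1, Cyc1 and Mroh1) did so, against 8.22% of all genes. In limma 3 of the 7 (Oplah, Gpaa1 and Mroh1) then passed, against 5.22% of all genes called lower. WT 2 was singled out after its values were seen, and it is the outlying library in these same 4 genes. Its removal also leaves GC slope and genotype confounded, so neither count is support for a difference. With 1 factor of residual variation in the fit, which keeps all libraries, 3 of the 7 (Exosc4, Gpaa1 and Mroh1) passed, against 6.86% called lower. That factor was taken from the variation left after the genotype fit, so it cannot change the differences, only their errors. Mroh1 stayed at −1.05 while its SE went from 0.34 to 0.10, so these passes are no separate check. The median difference of the 7 genes was −0.51 with all libraries and −0.079 after the correction, against −0.025 and 0.0067 over all genes. These shares are descriptions of GC-rich genes that share libraries and place, and no test was made of the 7 genes as a group.

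The genes farther along the chromosome had values of like size. Of the 12 further genes within 250 kb of Maf1, 0 passed with all libraries, 11 had a negative difference, against 52.9% of all genes, and 6 of these reached an unadjusted p under 0.05, against 13.2%. Their differences ranged from −1.01 to 0.44 around a median of −0.61. Their median exonic GC content was 56.9%, and after the correction their median was −0.20. Adck5, a gene of the ADCK kinase-like family, had the smallest p of the 12 (−1.01, SE 0.24, limma adjusted p = 0.192, −0.65 after the correction). The riboflavin transporter gene Slc52a2 was at −0.84 (SE 0.27), Grina, which encodes a membrane protein of the TMBIM family, at −0.63 (SE 0.22), and the F-box gene Fbxl6 at −0.97 (SE 0.37), all with adjusted p above 0.19 in limma. After the correction they were at −0.50, −0.25 and −0.53. Without WT 2, 5 of the 12 were called lower, against 5.22% of all genes. Adck5 (−1.19, limma adjusted p = 0.0060), Grina (−0.79, 0.0070) and Fbxl6 (−1.26, 0.0066) then passed, and Slc52a2 (−0.99, 0.0130) did not. Mirt2 was the 1 gene of the 12 with a positive difference, 0.44. Over the 51 further genes within 1 Mb the median was −0.33 and −0.068 after the correction, and over the other 500 genes of chromosome 15 it was −0.13 and −0.018. Each of these medians lay nearer to 0 after the correction.

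**Figure D4:**
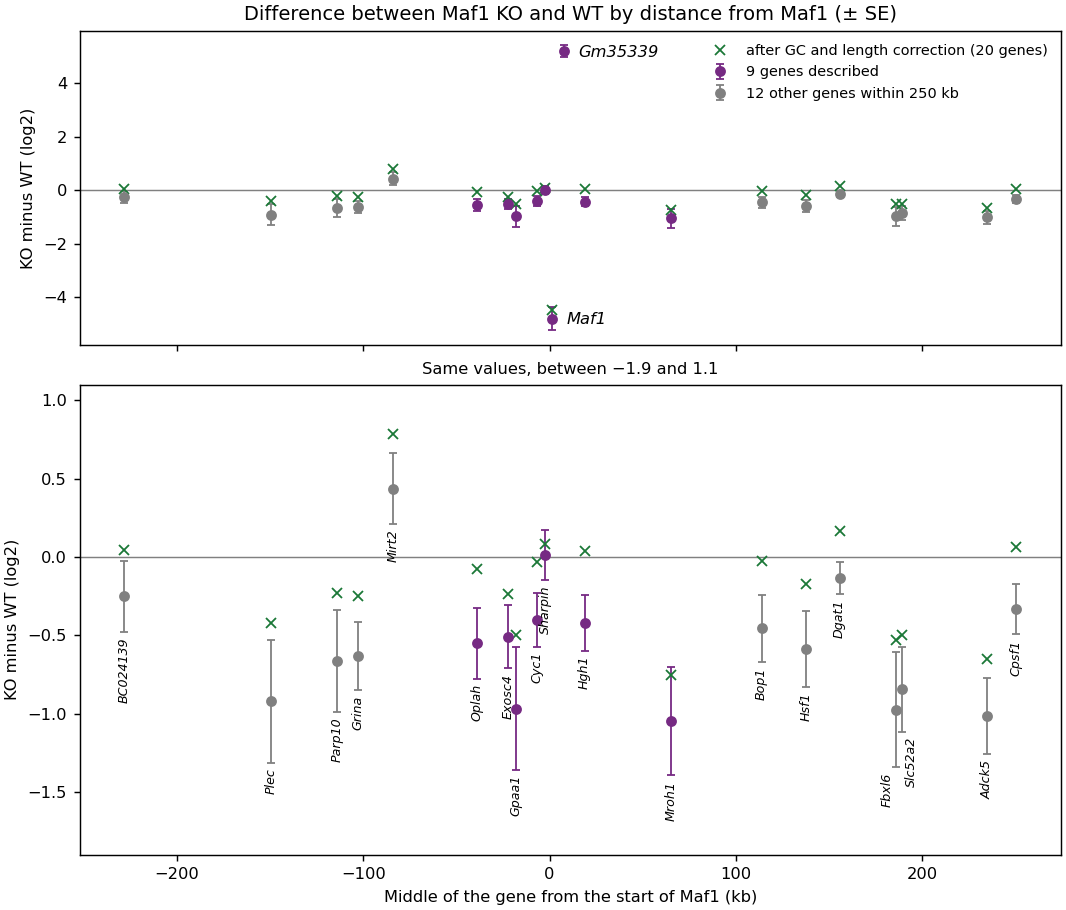
Log2 difference between Maf1-/- and WT livers (vertical, ± SE) against the distance of the middle of each gene from the start of Maf1 in kb (horizontal) for the 9 genes and 12 others within 250 kb, the lower panel showing the values near 0. Maf1 (−4.79) and Gm35339 (5.20) stand apart from genes on either side, and the crosses, after the GC and length correction, lie higher than the points in all 20 genes that have one.

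Genes elsewhere in the genome that were listed with 8 of the 9 products, Gm35339 having no list, had no common direction. The lists hold genes of a shared complex or pathway, except that of Mroh1, which holds genes of its family. In 8 lists, which name 81 such genes, 0 of those in the table passed in limma with all libraries, and their medians are read beside that of all genes, −0.025. Among the 18 partners of MAF1 in pol III repression (mostly subunits of pol III itself, with subunits of its factor TFIIIB, mTOR and Rptor of mTORC1, and phosphatases), 1 was lower and 3 were higher when p was left unadjusted at 0.05. Over all genes these shares were 13.2% lower and 9.9% higher, and the counts of the further lists use the same rule. The median of these 18 was 0.015, with the TFIIIB subunit gene Bdp1 at 0.50 (SE 0.16) and the phosphatase gene Ppp4c at −0.30 (SE 0.11). Of 9 exosome genes 1 was lower and 1 was higher (Exosc5 at −0.69, the nuclease gene Dis3 at 0.32), with a median of −0.0034. Of 4 GPI transamidase genes 2 were lower (Pigt at −0.69 and Pigs at −0.66), with a median of −0.30.

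Of 11 genes listed with complex III, not all of them subunits, 4 were lower and none was higher, with a median of 0.067. The small subunit genes Uqcr11 and Uqcrq were at −1.20 and −0.98. Of 5 genes listed with LUBAC 2 were lower, with a median of −0.41. These 2 were the genes of the ligase partners of SHARPIN in the complex, Rnf31 at −0.67 and Rbck1 at −0.79. The others listed (Otulin, Cyld and Spata2) are not subunits of it. In the glutathione cycle 1 of 9 was lower and 2 were higher (Ggct at 0.24 and Chac2 at 0.25), and in eEF2 folding 1 of 14 was lower and 3 were higher (Znhit2 at −1.02, the chaperonin subunit gene Cct8 at 0.29), with medians of 0.044 and 0.13. Of the Mroh family only Mroh2a (−0.19) and Mroh6 (0.43) are in the table. The medians after the correction lay between −0.14 and 0.10 in the 8 lists. Without WT 2, 2 of 4 GPI transamidase, 2 of 11 complex III and 2 of 14 eEF2 folding genes passed. So did 1 of 5 in the LUBAC list, 1 of 9 exosome genes and 1 of 18 in pol III repression. In the glutathione cycle 0 of 9 passed, and in the Mroh family 0 of 2. Over all genes 6.79% passed in either direction.

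The order of the levels was compared per kb of exon for the 8 genes with a known exonic length, which is the union of all annotated transcripts. Cyc1 was highest in Maf1-/- livers, with a median of 82.4 RPM per kb (54.8 to 83.9), against 98.3 (59.3 to 118) in WT livers. Oplah followed with 19.1 (12.9 to 24.6) in Maf1-/- livers and 30.4 (14.0 to 36.8) in WT livers, and Sharpin with 7.14 (5.31 to 8.02) and 6.51 (5.88 to 11.0). These 3 kept their places in both genotypes, and the ranges of Cyc1 and Oplah overlapped with no other gene. Exosc4 had 3.86 (2.61 to 3.94) in Maf1-/- livers and 5.06 (2.81 to 6.03) in WT livers, and Gpaa1 had 1.99 (1.25 to 3.15) and 5.14 (1.09 to 5.76). Hgh1 had 1.03 (0.937 to 1.61) in Maf1-/- livers and 1.64 (1.07 to 2.02) in WT livers, and Mroh1 had 0.60 (0.501 to 1.22) and 1.61 (0.493 to 2.14). The ranges of Exosc4 and Gpaa1 overlapped in both genotypes, as did those of Hgh1 and Mroh1. Maf1 was last in Maf1-/- livers at 0.158 (0.0591 to 0.583), whereas in WT livers it stood at 4.64 (2.58 to 5.34), where its range overlapped with those of Gpaa1 and Exosc4.

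Genes with profiles most like those of Maf1 and Gm35339 over the 12 libraries lay on other chromosomes. The Pearson correlation with Maf1 was highest for Cradd on chromosome 10 (r = 0.89, difference −0.45), Eif2ak1 on chromosome 5 (0.88, −0.23) and Mboat7 on chromosome 7 (0.88, −0.26). With Gm35339 it was highest for Zfp354b (r = 0.95, difference 0.65, SE 0.10) and Olfr1372-ps1 (0.90, 1.54, SE 0.24), both on chromosome 11, and 1700025G04Rik on chromosome 1 (0.89, 0.34). None of these 6 passed, with limma adjusted p of 0.093 or above. Between Maf1 and Gm35339 r was −0.96, and between Maf1 and the other 7 genes it was 0.056 in Sharpin and 0.50 to 0.63 in the rest. Since Maf1 and Gm35339 split the libraries by genotype, these values mostly follow the genotype contrast and are given as a description over 12 libraries that share it.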

How the data were processed

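Livers of 5 Maf1-/- and 7 WT mice were sequenced as total RNA, 1 library per mouse, so that p-values measure the spread between these mice. The authors trimmed reads with cutadapt 1.8, removed ribosomal and low-complexity reads, aligned with STAR 2.5.2b to GRCm38, assigned them to genes (htseq-count 0.6.1), with TMM scaling between libraries. The deposited table holds log2 values for 13304 genes, labelled RPKM. Undoing the log gave a whole number of reads (tolerance 0.001) with 0.5 added for 100% of them, once multiplied by a scaled library size. They are thus log2 RPM, not divided by length.

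The genotypes were compared in limma 3.58.1 (R 4.3.3) on the log2 values, Maf1-/- minus WT, with Benjamini-Hochberg adjustment across the whole table. Genes passed at an adjusted p under 0.01 with an absolute log2 difference above 0.5. To correct for GC content and length, the loess trend of each library (span 0.4) was subtracted for the 12482 genes (93.8%) with values from NCBIM37 (mm9) exons, joined by gene identifier. Exact tests went over all 792 divisions. The fits were tested on simulated data. Intervals on reads cover counting error only.

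The 9 genes and the partner lists were chosen with earlier results of these data known. Named are the 9 genes, up to 2 genes per partner list and up to 4 further genes within 250 kb by smallest p, and the 3 genes most correlated with Maf1 and with Gm35339. Mirt2 and Tnc were named after their values were seen. The alternatives were 23 planned settings and 2 chosen after seeing the data. Pol III occupancy scores, with 1 value per group, are not used here.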

Additional observations from a re-analysis of the deposited data

Results flagged for a closer look

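Within each genotype, 22 sets of libraries were searched for a single library far from the rest of its group, and 7 held one. Chance gives about 1 in 20 for a single set. The sets share libraries and neighbouring genes, and all 7 outliers are WT 2 or WT 1, so their number cannot be set against chance. WT 2 was far below the other WT libraries in Oplah (6.30), Gpaa1 (1.64), Cyc1 (6.15) and Mroh1 (3.03), all in log2 RPM, and in the slope of expression on GC content (−0.569 per 10 points). WT 2 also had the lowest Maf1 value (2.64) and the highest Gm35339 value (0.90) of the WT libraries, with Maf1 above and Gm35339 below every Maf1-/- library. After the GC and length correction WT 2 was at 6.99 in Oplah and 6.74 in Cyc1, within 1 SD of the WT mean, and at 2.32 in Gpaa1 and 3.54 in Mroh1, below every other WT library. WT 1 was far above the other WT libraries in Sharpin (5.37) and in the number of reads in table genes (55787438). No cause was tested.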

How the results depend on the processing

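With all 12 libraries 2 genes passed, Maf1 and Gm35339. The number was 2 to 904 when 1 library at a time was left out (904 without WT 2), 1076 with 1 residual factor, 2019 with library weights, 92 with 1 residual factor and the correction, and 1 with the GC and length correction, which leaves out Gm35339. Of the 7 other genes 0 passed, against 0 to 3 with 1 library left out (3 without WT 2), 3 with 1 residual factor, 4 with library weights and 1 without WT 2 in the corrected fit. Within 250 kb, 2 genes passed, against 2 to 10 with 1 library left out (10 without WT 2), 12 with 1 residual factor, 14 with library weights and 1 after the correction. Whether the shared replicate numbers 1 to 5 pair the libraries is not given in the sources used here. Deviations of same-numbered libraries correlated at −0.457 to 0.227, and no Maf1-/- library correlated best with its own number. No pairing was seen, but these values cannot exclude one. With the replicate numbers as a block, without WT 6 and WT 7, 1 gene passed, also within 250 kb, and 0 with the correction added. Maf1 was then at −4.73 (limma adjusted p = 0.079), and at −4.47 with the correction (limma adjusted p = 0.267). Under the block without the correction, 0 of the 7 other genes reached an unadjusted p under 0.05, against 573 of 13304 genes. Maf1 ranged from −5.28 to −4.45 with 1 library left out and was −2.95 with 1 added to each RPM, where Gm35339 was 4.42, and both passed. Sharpin turned to −0.051 under the block and ranged from −0.039 to 0.12 with 1 library left out. Hgh1 turned to 0.038 after the correction, 0.095 without WT 2 as well, and 0.038 with the residual factor added. Median centring moved the median of all genes by 0.0997. Maf1 in Maf1-/- livers rests on 5 to 52 reads, and depth limits its level there.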
